A study of Mus musculus with 8 samples.

Results

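Bone morphogenetic proteins (BMPs) and the secreted proteins that bind them outside the cell were examined in cultured fibroblasts from the skin of mice with and without a mutant Nd2 gene. The set held the ligands Bmp2, Bmp4, Bmp6 and Bmp7, the antagonists Grem1, Nog, Chrd and Fst, and the modulator Bmper. These 9 genes were taken by symbol from the array, where each had 1 probe, out of 18138 genes and 25697 probes. The set was chosen on the measured strain difference, since Bmp4 was among the lowest genes in the mutant, so the strain differences of these genes are given as a description and were not tested.

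Expression was read on 8 Illumina MouseRef-8 v2.0 arrays, each carrying RNA of primary skin fibroblasts from a single mouse, and the study asked how a mutation of the mitochondrial Nd2 gene, which encodes a subunit of respiratory complex I, affects these cells. The mutant strain C57BL/6J-mtALR/LtJ and the control strain C57BL/6J-mtAKR/J are conplastic, which means that both carry the nuclear genome of C57BL/6J and differ in the donor of their mitochondrial genome. Each strain was represented by 4 mice 12 months old, males 28 and 32 and females 34 and 35 for the mutant, males 16 and 17 and females 15 and 37 for the control. The cells were freed from skin with Liberase, grown in DMEM with 10% FCS and antibiotics and used without further treatment at passage 1, so that any cell type that survived this culture could contribute RNA. A lower signal in such bulk RNA can come from fewer cells of a type or from less RNA per cell, and these cannot be told apart here. With 4 arrays per strain the precision of each difference is limited. Each mouse gave 1 array, so p-values set a difference against a spread in which mouse, culture and array cannot be told apart.

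BMP ligands are secreted dimers that bind pairs of type I and type II receptors, which phosphorylate the transcription factors Smad1, Smad5 and Smad9 and thereby raise genes such as the Id family. Outside the cell, noggin, chordin, gremlin and follistatin hold ligands away from their receptors, and the balance of ligand and antagonist sets the strength of the signal. In skin, BMPs act in the dermis and the hair follicle, where antagonists made by dermal fibroblasts help to set the timing of the hair cycle.

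Values are normalized intensities in arbitrary units, and detection means a detection p-value below 0.01. Each array detected between 10663 and 11350 probes. Control mouse 15 stood apart, since its correlation with the remaining arrays averaged 0.934, against 0.963 to 0.974 for the rest. Of 11 fibroblast markers 10 were detected on 8 of 8 arrays, and Fap on 7. Their summed intensity ran from 35335 to 40943 in mutants and from 29605 to 43679 in controls. Summed markers of macrophages reached 779 in mutant mouse 35 and lay between 47.3 and 245 in the other mice, so results are also given without mice 15 and 35. Log2 differences are on the scale of log2(intensity + 16), which understates the change of dim probes.

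The 250 bases before the transcription start of Bmp4, Chrd, Grem1 and Bmper are shown because these are the members whose strains or sexes did not overlap among those that passed the filter on detection. The windows come from RefSeq (GRCm38.p6), are read 5′ to 3′ on the strand of the gene, and have the letters GGCGCC, an element bound by BMP-responsive SMADs, in capitals.
Bmp4, chr14:46390670-46390919, minus strand: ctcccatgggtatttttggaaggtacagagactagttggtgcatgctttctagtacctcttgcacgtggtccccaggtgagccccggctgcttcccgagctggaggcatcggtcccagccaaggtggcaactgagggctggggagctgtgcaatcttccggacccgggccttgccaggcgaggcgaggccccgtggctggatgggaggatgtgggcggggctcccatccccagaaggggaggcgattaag
Chrd, chr16:20732877-20733126, plus strand: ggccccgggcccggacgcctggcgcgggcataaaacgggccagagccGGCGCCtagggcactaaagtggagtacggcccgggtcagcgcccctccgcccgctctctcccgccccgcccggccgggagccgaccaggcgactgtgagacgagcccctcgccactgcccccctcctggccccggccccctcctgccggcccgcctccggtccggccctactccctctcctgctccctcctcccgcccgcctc
Grem1, chr2:113758649-113758898, minus strand: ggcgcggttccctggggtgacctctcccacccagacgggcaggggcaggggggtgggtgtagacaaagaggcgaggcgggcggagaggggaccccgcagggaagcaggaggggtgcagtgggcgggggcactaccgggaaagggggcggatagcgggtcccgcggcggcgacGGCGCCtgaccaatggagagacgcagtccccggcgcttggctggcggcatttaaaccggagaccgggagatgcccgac
Bmper, chr9:23222826-23223075, plus strand: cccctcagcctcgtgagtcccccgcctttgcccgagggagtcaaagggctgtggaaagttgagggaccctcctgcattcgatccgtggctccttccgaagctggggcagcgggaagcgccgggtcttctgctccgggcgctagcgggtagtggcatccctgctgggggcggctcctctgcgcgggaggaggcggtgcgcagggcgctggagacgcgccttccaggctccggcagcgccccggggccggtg

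RefSeq windows were matched for 5 of 9 members, these and Bmp6, and none was matched for Bmp2, Bmp7, Nog and Fst. All 5 were richer in G and C than the median of 52.4% over 32851 windows of the same length, from 63.2% for Bmp4 to 78.0% for Chrd. GGCGCC, which reads the same on both strands, was present once in Chrd and once in Grem1, and in 9.59% of all windows. The shorter SMAD core element CAGAC, searched on both strands, was present in Grem1 and Bmp6 and in 42.2% of all windows. The TATA box letters TATAAA, also searched on both strands, were in none of the 5 windows and in 12.4% of all windows. The Chrd window lies within the span that RefSeq gives the gene. These are matches of letters and are not binding sites measured in these cells.

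Among the ligands, Bmp4 was the member with the widest gap between the strains. Bmp4, a ligand that acts in the dermis and in hair follicle development, is on chromosome 14 and was read by probe ILMN_1215252. Its intensity in the mutants was 13.6 in mouse 28, 26.0 in mouse 32, 9.78 in mouse 34 and 21.5 in mouse 35. In the controls it was 92.7 in mouse 15, 60.9 in mouse 16, 31.4 in mouse 17 and 119 in mouse 37. The strains did not overlap, and the lowest control, male mouse 17, lay close to the highest mutant, male mouse 32. The probe was detected on 3 of 4 mutant arrays, all but mouse 34, and on 4 of 4 control arrays.

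The mean Bmp4 intensity was 17.7 ± 7.38 (SD, n = 4) in mutants and 75.9 ± 37.9 (SD, n = 4) in controls, a ratio of 4.28 of control over mutant. On the log2 scale the mutants were lower by a difference of -1.37 (SE 0.30), and 3 of 10414 tested probes had a more negative difference. Bmp4 led to the choice of the set and passed the filter only through the controls, where it was higher. Nothing is therefore read from that rank. The difference was -1.31 without mice 15 and 35. It depended on the value added before taking log2 and on the sex of the mice. In males alone it was -0.78 and in females alone -1.96, since the female controls were the brightest of the 8 mice and the mutants of both sexes were dim.

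The fit of strain by sex put the Bmp4 strain difference of males above that of females by 1.18 (SE 0.45), with an unadjusted limma p of 0.0288 and an adjusted p of 0.9999. Bmp4 entered this fit only through its detection in the controls. Of the 5 members tested 1 had an unadjusted interaction p under 0.05, beside a background of 1.77% of all tested probes. None had an adjusted p under 0.05, beside a background of 0.0096%. The sex difference of Bmp4, male minus female with strain as a term, was -0.41 (SE 0.28, limma adjusted p = 0.729).

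Markers of muscle were also read beside Bmp4. Of 4 skeletal muscle markers, only Acta1 was detected on 8 of 8 arrays, and Myod1 and Ckm were detected on none. The sum of the list ran from 254 to 938 in mutants and from 767 to 1207 in controls. Of 5 smooth muscle and pericyte markers, Acta2, Myh11 and Des were detected on 8 of 8 arrays and Rgs5 and Cnn1 on none. Their sums, almost all Acta2, ran from 10152 to 14005 in mutants and from 11760 to 14311 in controls. Myh11, the smooth muscle myosin, ran from 21.4 to 69.6 in mutants and from 51.9 to 227 in controls, and Des, desmin, from 21.5 to 39.3 and from 23.1 to 136. For both genes the 2 brightest mice were controls 15 and 16. The sums of both lists, Myh11 and Des overlapped between the strains, and their part in the Bmp4 difference was not tested.

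Bmp6, a ligand on chromosome 13 known for its part in iron balance, ran the opposite way to Bmp4 and was dim in every mouse. Its intensity was 31.5, 12.5, 10.9 and 21 in mutant mice 28, 32, 34 and 35, and 6.16, 5.86, 9.58 and 6.19 in control mice 15, 16, 17 and 37. The strains did not overlap, and the probe was detected on 3 of 4 mutant arrays and 0 of 4 control arrays. It therefore did not pass the filter, which asked for detection on 4 of 4 arrays of a strain, and it is left out of the counts. The mutant mean was 19 ± 9.42 (SD, n = 4) and the control mean 6.95 ± 1.76 (SD, n = 4). The control signal is only a bound, and mutant mouse 34 was not detected either. With controls set to the lowest signal that counted as detected on their arrays, the mutant mean was 1.17-fold higher on the scale with 16 added. On the linear scale it was 1.45-fold higher. That lowest signal ran from 12.7 to 13.6 on the control arrays. Mutant mice 32 and 34 lay below it and mice 28 and 35 above, so these ratios are not lower bounds.

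Bmp2 and Bmp7, ligands with wide roles in bone and kidney, were detected on 0 of 8 arrays. Bmp2 lay between -2.90 and 1.69, and Bmp7 between -4.43 and 6.52, where values below 0 follow from the background subtraction. No level and no difference can be read from these probes.

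**Figure D1:**
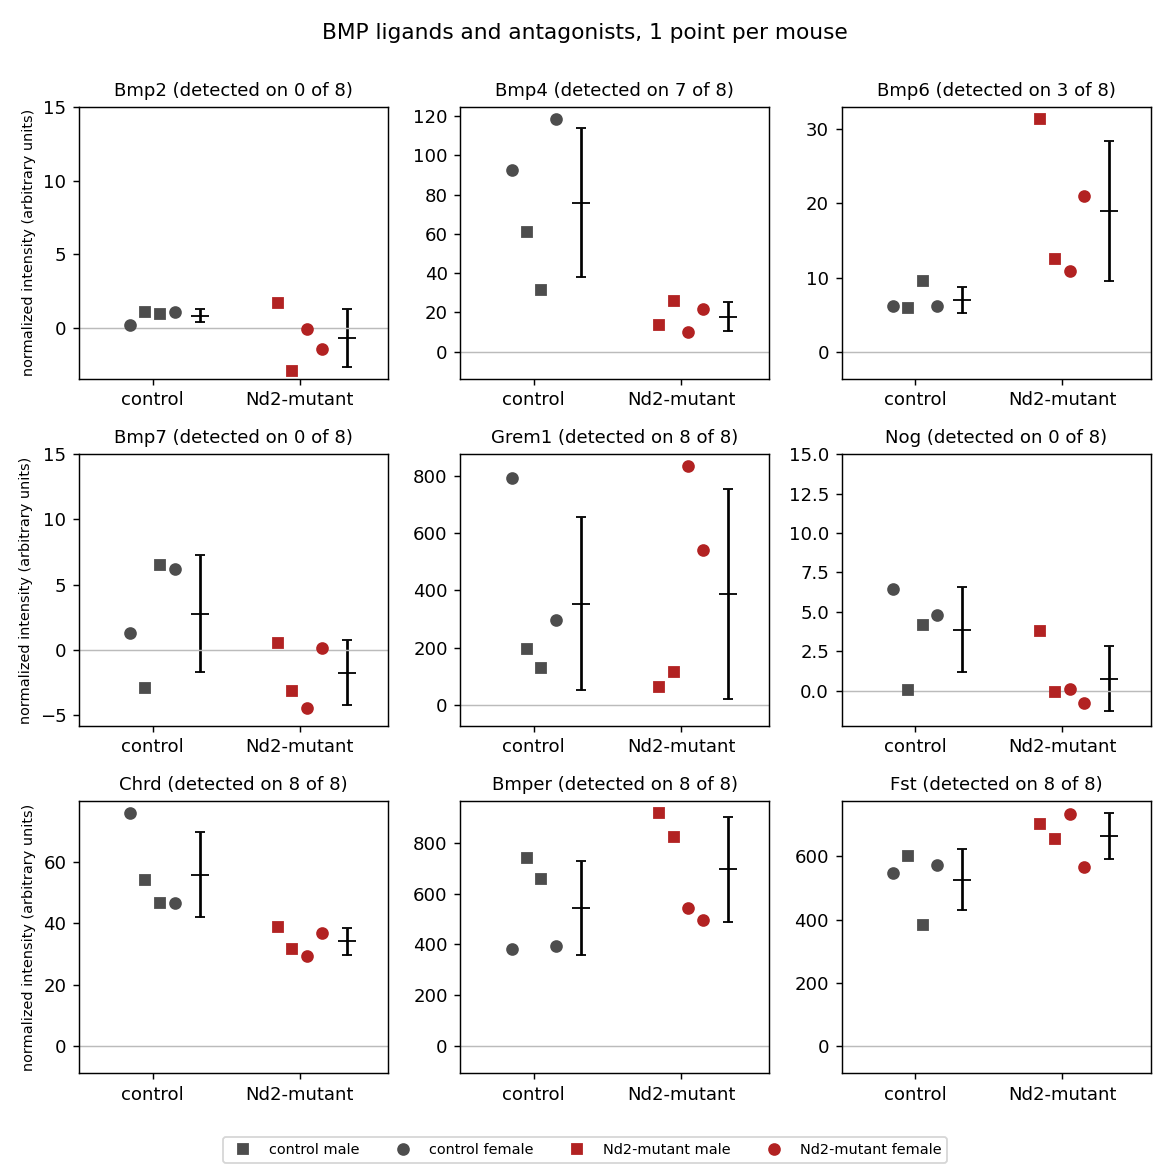
Normalized intensity (vertical axis, linear, arbitrary units) of the 9 genes in 4 control (grey) and 4 Nd2-mutant (red) mice, with squares for males, circles for females and bars for mean ± SD. Bmp4 and Chrd lie lower in all 4 mutants than in any control, Bmp6 lies higher, and Grem1 and Bmper separate by sex and not by strain.

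Among the antagonists, Chrd was the one whose strains did not overlap. Chordin binds BMP dimers and is cut by the protease Bmp1, which frees the ligand. Its probe, ILMN_2765047 on chromosome 16, read 39.0 in mouse 28, 31.5 in mouse 32, 29.3 in mouse 34 and 36.8 in mouse 35 among the mutants. Among the controls it read 76.1 in mouse 15, 54.1 in mouse 16 and 46.7 in both mouse 17 and mouse 37. All mutants were below all controls, and control mouse 15 was the brightest. The means were 34.2 ± 4.50 (SD, n = 4) in mutants and 55.9 ± 13.9 (SD, n = 4) in controls, a ratio of 1.64 of control over mutant. The log2 difference was -0.51 (SE 0.16), -0.38 without mouse 15 and -0.41 without mice 15 and 35. Chrd was thus lower in the same strain as Bmp4 but by less, and 281 of the tested probes had a more negative difference.

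Grem1, the antagonist gremlin that binds Bmp2 and Bmp4, varied more between mice of 1 strain than between strains. The intensity of its probe, ILMN_1228522, was 61.6 in mutant male 28, 116 in mutant male 32, 834 in mutant female 34 and 539 in mutant female 35. In the controls it was 196 in male 16, 130 in male 17, 793 in female 15 and 296 in female 37. Every female was above every male, in both strains. The strain means were 388 ± 366 (SD, n = 4) in mutants and 354 ± 301 (SD, n = 4) in controls, with a log2 difference of -0.17 (SE 0.75). That difference took opposite signs in the sexes, -0.80 in males and 0.45 in females, and moved to 0.31 without mouse 15. Its standard deviation within strains was 1.38 on the log2 scale, against a median of 0.26, and 7 tested probes had a larger one.

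The sex of the mice was not used to choose the genes, so this difference was tested. Female mice had a mean Grem1 intensity of 615 ± 250 (SD, n = 4) and males 126 ± 55.3 (SD, n = 4), a ratio of 4.89. The log2 difference, male minus female with strain as a term, was -2.14 (SE 0.37), larger in size than that of all but 2 tested probes. Probes detected in only males or only females could not pass the filter, since each strain held both sexes, and are not in that rank. The Grem1 difference was -2.76 within mutants and -1.51 within controls. The limma adjusted p over all tested probes was 0.188, above the threshold of 0.05. It was 0.0169 without control mouse 37, the dimmest female, with a difference of -2.54. It was 0.0451 with weights for the arrays, which were set from a fit of strain alone. In the other alternatives it stayed above the threshold, and without mice 15 and 35 the difference was -1.95 (adjusted p = 0.421). The interaction of strain and sex was -1.25 (SE 0.67, limma adjusted p = 0.9999).

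Bmper, a secreted protein that binds BMPs and can dampen or enhance their signal, differed between the sexes in the other direction. Its probe, ILMN_3008361 on chromosome 9, read 918 in mutant male 28, 821 in mutant male 32, 545 in mutant female 34 and 497 in mutant female 35. The controls read 742 in male 16, 659 in male 17, 380 in female 15 and 392 in female 37. Every male was above every female, and within each sex every mutant was above every control. Males averaged 785 ± 111 (SD, n = 4) and females 453 ± 80.5 (SD, n = 4), a ratio of 1.73. The log2 difference was 0.78 (SE 0.13, limma adjusted p = 0.179), 0.72 within mutants and 0.83 within controls, and 139 tested probes had a larger one in size. With array weights the adjusted p was 0.0350, and without mice 15 and 35 the difference was 0.73 (adjusted p = 0.364). Between the strains the means were 695 ± 206 (SD, n = 4) in mutants and 543 ± 185 (SD, n = 4) in controls, with a log2 difference of 0.36 (SE 0.27).

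Fst, follistatin, which binds activins most tightly and some BMPs, was detected on 8 of 8 arrays and had the narrowest spread of the tested members between its brightest and dimmest mouse. Its probe, ILMN_1228958 on chromosome 13, read 701, 656, 735 and 568 in mutant mice 28, 32, 34 and 35, and 546, 600, 384 and 573 in control mice 15, 16, 17 and 37. The strains overlapped, with mutant mouse 35 below control mice 16 and 37. The means were 665 ± 72.6 (SD, n = 4) in mutants and 526 ± 97.1 (SD, n = 4) in controls, and the log2 difference was 0.34 (SE 0.17). The sex difference was -0.07 (SE 0.17, limma adjusted p = 0.925). Nog, the antagonist noggin on chromosome 11, lay between -0.77 and 6.44 and was detected on 0 of 8 arrays.

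Of the 9 members 5 passed the filter on dim probes, namely Bmp4, Grem1, Chrd, Bmper and Fst, and 4 did not. The strains did not overlap for 2 of the 5, both lower in the mutant, beside a background of 4.37% of all tested probes in either direction and 2.13% lower in the mutant. That both were lower depends on the filter. Bmp4 passed it only through the controls, where it was higher, and Bmp6, higher in the mutant without overlap, did not pass it. Within males alone, 2 mice against 2, the strains did not overlap for 5 of 5, beside a background of 34.6%, and within females alone for 3 of 5, beside 32.9%. Since the choice of the set used this contrast, nothing is read from these counts. The median log2 strain difference of the 5 was -0.17, and that of all tested probes was 0.00093.

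In the sex contrast 2 of the 5 members did not overlap, Grem1 and Bmper, beside a background of 5.16% of probes. The same 2 had an unadjusted limma p under 0.05, beside 8.31%, and 0 had an adjusted p under 0.05, beside 0.0192%. The median size of the log2 sex difference over all tested probes was 0.15. These sex backgrounds leave out probes detected in only males or only females, which could not pass the filter. Neither Grem1 nor Bmper passed the test. For each the sign was the same within both strains, which follows from the lack of overlap and adds nothing to it.

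Markers were set beside the sex differences. Of 7 dermal papilla markers with a probe, Crabp1, Vcan and Rspo3 were detected on 8 of 8 arrays, and Sox2, Corin and Lef1, which define that cell type, on none. Their summed intensity ran from 828 to 1251 in males and from 1017 to 1671 in females, most of it Crabp1, which ranged from 692 in mutant male 28 to 1570 in mutant female 34. Of 4 endothelial markers Pecam1 and Tek were detected on 8 of 8 arrays and Kdr on none, and the sums ran from 69.3 to 118 in males and from 57.6 to 206 in females. The lists overlapped between the sexes. Their part in the Grem1 and Bmper differences was not tested.

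**Figure D2:**
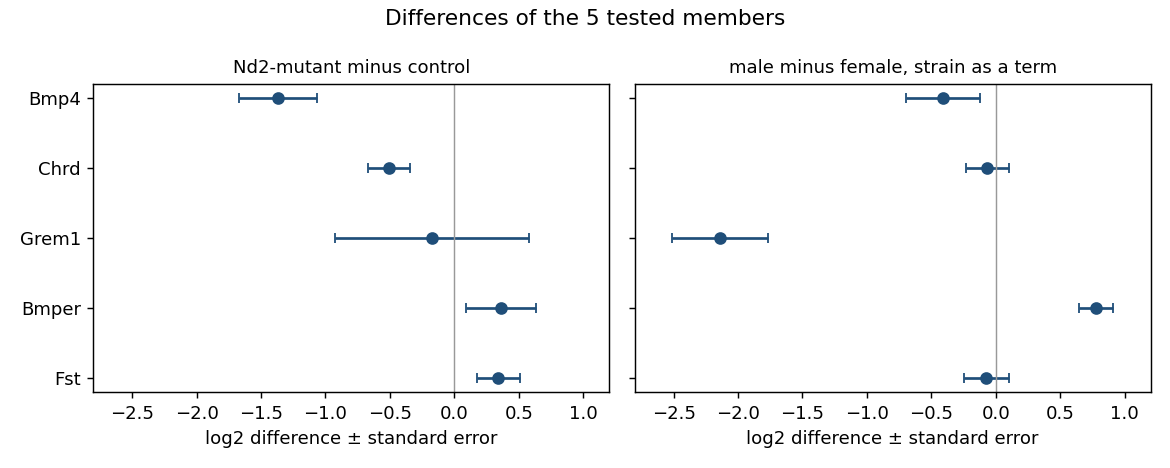
Log2 difference (horizontal axis, ± standard error) of the 5 tested members between Nd2-mutant and control mice (left) and between male and female mice with strain as a term (right). Bmp4 has the widest strain difference (-1.37), and Grem1 (-2.14) and Bmper (0.78) have the widest sex differences, in opposite directions.

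The genes whose log2 values ran most like those of Bmp4 over the 8 arrays were listed as a description. The highest Pearson correlations were those of Cspg4, the NG2 proteoglycan (0.974), Endod1 (0.971), Actb, which encodes cytoplasmic actin (0.963), D5Ertd579e (0.956) and Mgll, monoacylglycerol lipase (0.954). The lowest were those of D030074E01Rik (-0.947), Egln1, an oxygen-sensing prolyl hydroxylase (-0.939), Rbpms (-0.938), B4galt1, a galactosyltransferase (-0.934) and Vps25, a subunit of an endosomal sorting complex (-0.932). The points are 8 arrays that share strain and sex with Bmp4, so these values are not independent of its strain difference.

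The rest of the pathway was read from a list of 54 genes, of which 47 had a probe and 27 passed the filter with 34 probes. None was called in either direction between the strains, 0 higher and 0 lower by limma adjusted p, beside a background of 0.0% of all tested probes. At an unadjusted limma p under 0.05 the count was also 0, beside 7.63%. The median log2 difference of the 34 probes was -0.11, with a range from -1.67 to 0.73, against 0.00093 over all tested probes, and 19 were lower and 15 higher in the mutant.

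Of the 13 genes listed as other ligands, which include the protease Bmp1, 3 passed the filter. Inhba, which encodes an activin subunit that follistatin binds, was at 1444 ± 611 (SD, n = 4) in mutants and 1999 ± 326 (SD, n = 4) in controls, with a log2 difference of -0.56 (SE 0.29). Bmp1, the protease that cuts chordin, had 4 probes, with differences of -0.13, -0.21, -0.39 and 0.25. The first 3 were brightest in control mouse 15, and the last was dim. Bmp8a was at -0.25. Each of these probes overlapped between the strains.

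Of 14 other extracellular modulators 5 passed the filter. Twsg1, which binds chordin and BMPs together, had a log2 difference of 0.37 (SE 0.18), Fstl1, a relative of follistatin, of 0.24, Nbl1 of -0.25 and Crim1 of -0.40. The strain differences of these ligand-binding proteins thus lay on both sides of 0, and each probe overlapped between the strains.

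Of 11 receptors and co-receptors 9 genes passed the filter, with a median log2 difference of 0.05. Bmpr1a, a type I receptor for Bmp2 and Bmp4, had 2 probes that disagreed. On ILMN_2653312 the mutants read 176, 130, 146 and 88.6 in mice 28, 32, 34 and 35 and the controls 30.8, 57.6, 128 and 109 in mice 15, 16, 17 and 37, a difference of 0.73 (SE 0.33), while ILMN_1251119 gave 0.05 (SE 0.17). Both probes overlapped between the strains. Bmpr2, the type II receptor, was at 0.09. Acvrl1 and Eng, receptor and co-receptor best known from endothelium, did not overlap between the sexes, 2 of 11 tested receptor probes beside a background of 5.16%. Acvrl1 was brighter in males by 0.45 (SE 0.13, limma adjusted p = 0.436), and Eng was brighter in females, with -0.39 (SE 0.17, limma adjusted p = 0.582).

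**Figure D3:**
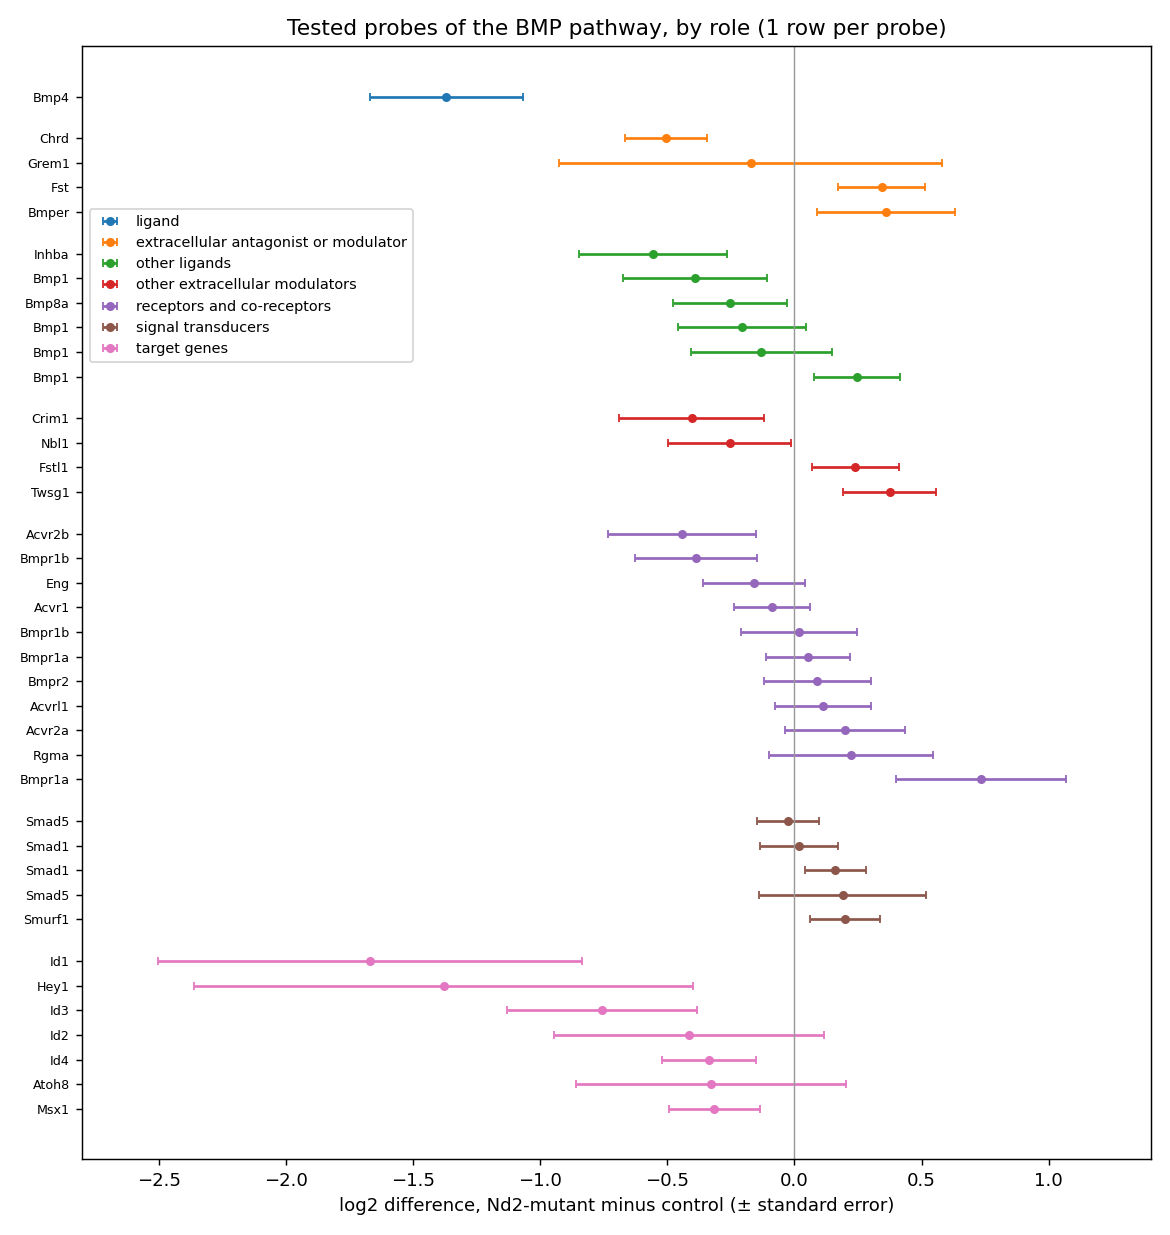
Log2 difference between Nd2-mutant and control mice (horizontal axis, ± standard error) for tested probes of the set and of the pathway list, 1 row per probe, coloured by role. Bmp1, a protease, is drawn among the other ligands. The 7 probes of target genes all lie below 0, from -1.67 to -0.31, though in males alone 4 of these genes were higher in the mutant. Of the receptor probes 4 lie below 0 and 7 above, and of the signal transducer probes 1 lies below and 4 above.

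Among 8 signal transducers 3 genes passed the filter, with 5 probes. In the whole pathway list 1 of 34 tested probes had no overlap between the strains, beside a background of 4.37%, so nothing is read from it. It was probe ILMN_2671572 of Smad1, with 528 ± 16.5 (SD, n = 4) in mutants and 471 ± 21.6 (SD, n = 4) in controls. Its log2 difference was 0.16 (SE 0.12). The other tested Smad1 probe was at 0.02. The tested Smad5 probes disagreed. ILMN_3076864 read 62.2 and 58.3 in mutant males 28 and 32, 15.5 and 13.5 in mutant females 34 and 35, and between 19.5 and 34.3 in controls. Its strain difference was 0.19 (SE 0.33) and its interaction with sex 1.32 (SE 0.34, limma adjusted p = 0.9999). For ILMN_3155789 these were -0.02 and 0.07. Smurf1 had a strain difference of 0.20. Smad6, an inhibitor that BMP signalling raises, was detected on 6 of 8 arrays and was not tested.

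Of 8 target genes 7 passed the filter, 1 probe each, and the 7 were lower in the mutant by point estimate, with a median of -0.41 and a range from -1.67 to -0.31. In females alone 7 of 7 were lower in the mutant, and in males alone 3 of 7 were lower and 4 higher, namely Id1 (0.39), Id2 (0.40), Hey1 (0.30) and Atoh8 (0.06). In none was the strain difference past the threshold, and the strains overlapped in each. Over all tested probes the median strain difference was 0.00093, and the shares lower in the mutant within each sex were not counted. Nothing is therefore read from these counts of target genes. The 2 mutant females were the dimmest of the 8 mice for Id1, Id2, Id3, Hey1 and Atoh8, but not for Id4 and Msx1. Id4 read 180 in mutant female 34, above the mutant males at 178 and 143. Msx1 read 36.4 in mutant female 35, above mutant male 32 at 32.2. The share of all tested probes with the mutant females dimmest was not counted, so whether this order is unusual cannot be told. Id1, which blocks the differentiation factors of the helix-loop-helix family, read 1441 and 1672 in mutant males 28 and 32, 126 and 86.1 in mutant females 34 and 35, and between 1097 and 1932 in the 4 controls. Hey1, a repressor also raised by Notch, read 529 and 315 in the mutant males, 5.48 and 12.2 in the mutant females, and between 106 and 533 in controls. It was detected on 3 of 4 mutant arrays, all but female 34, and on 4 of 4 control arrays. Hey1 thus passed the filter only through the controls, where it was higher on average. For both Id1 and Hey1 the mutant males lay within the range of the controls, and the mutant females lay below it.

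For Id1 the interaction of strain and sex was 4.12 (SE 0.38, limma adjusted p = 0.0341), the sole probe of all 10414 past the threshold in that test. The Id1 strain difference was 0.39 in males and -3.73 in females. The call was lost in 10 of 20 alternatives, among them the removal of either male control, 16 or 17, or of any mutant mouse, with adjusted p between 0.155 and 0.421 for those 6. The size stayed between 3.88 and 4.35 when those mice were left out. The interactions of Hey1 (3.36, SE 0.79), Id2 (1.62, SE 0.48) and Id3 (1.32, SE 0.30) had the same sign and an adjusted p of 0.9999 each. Bmp4 was dim in mutants of both sexes, and a relation between the members and these targets was not tested.

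**Figure D4:**
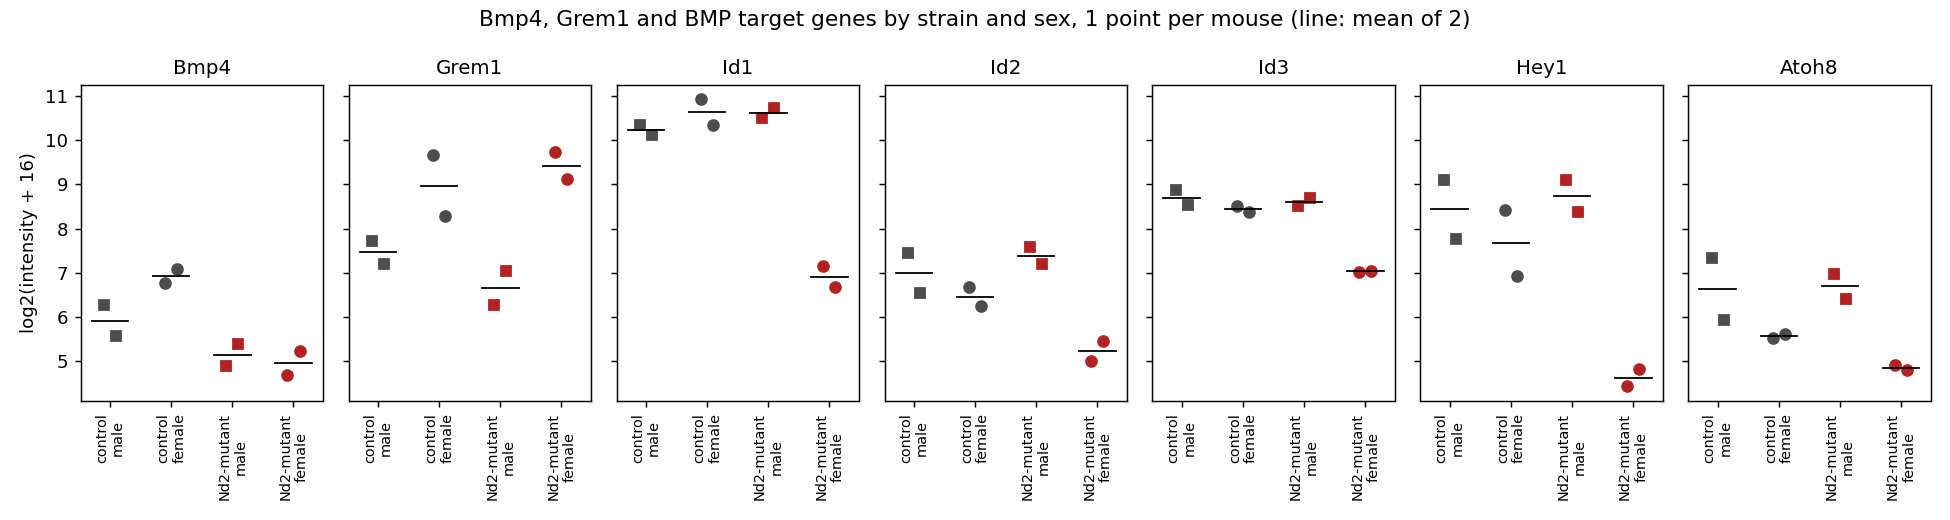
Log2(intensity + 16) (vertical axis) of Bmp4, Grem1 and 5 target genes in control (grey) and Nd2-mutant (red) males (squares) and females (circles), 1 point per mouse, with a line at the mean of 2. Bmp4 is low in mutants of both sexes, Grem1 is high in females of both strains, and Id1, Id2, Id3, Hey1 and Atoh8 are lowest in mutant females. Id4 and Msx1, tested target genes without that order, are not drawn. The share of all tested probes with that order was not counted.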

How the data were processed

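RNA of skin fibroblasts from 4 Nd2-mutant and 4 control mice was read on 1 Illumina array each. The authors extracted the intensity of each probe in GenomeStudio, quantile normalized it between arrays and subtracted the background, and deposited linear values. Each has a detection p-value, which the authors deposited from the same software. The deposited table called non-normalized holds the same bytes as the normalized one and was not used, so other background corrections could not be tried.

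Negative intensities were raised to 0 before 16 was added and log2 taken. Probes detected (p under 0.01) on 4 of 4 arrays of at least 1 strain entered limma 3.58.1 under R 4.3.3 (lmFit, then eBayes). Tests were 2-sided, p-values of the 10414 probes were adjusted by the method of Benjamini and Hochberg, and 0.05 was the threshold. The fits were strain, sex with strain as a term, and their interaction. The steps were tested on simulated data. No probe sequences or chip names were used here, so no array batch could be fitted.

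The members, the pathway and marker lists and the tests were chosen with earlier results of these data known. Named genes were the members, the pathway list, markers and the 5 probes with the highest and the 5 with the lowest correlation with Bmp4. One tested gene of the pathway list stays in the counts, and its own values are not reported here. The lists of keratinocyte, melanocyte and adipocyte markers were also read. Genes were named by the symbols of the array, and RefSeq promoters were matched by symbol. Each result was recomputed with other added values, floors, scales, filters, normalizations, eBayes with a trend, array weights and sets of mice. The array weights came from a fit of strain alone and were also used for sex and interaction. Differences between the sexes therefore counted as spread when the weights were set.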

Additional observations from a re-analysis of the deposited data

Results flagged for a closer look

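Fst in female mice was singled out because mutant mouse 34, at 735, lay far from the other 3 females, at 546, 568 and 573. Its gap to the nearest of them was 0.839 of the whole range of the group on the scale of log2(intensity + 16). Of 40 groups of 4 mice checked in this way 1 stood out, and chance gives about 1 in 20, or 2.0 groups.

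The strain difference of Id1 differed between the sexes, by 4.12 on the log2 scale (limma adjusted p = 0.0341), being 0.39 in males and -3.73 in females.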

How the results depend on the processing

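No paired analysis was possible because no mouse number occurs in both strains. Each member had 1 probe, so the alternative of another probe was not run. The alternative without mice 15 and 35 was chosen after seeing the data. Over all probes the strain comparison called 0 probes, but 3 with no filter and 1 with the methods' t-test, adjusted by Benjamini-Hochberg. The members without overlap between the strains numbered 2, but 1 of those detected on 8 of 8 arrays, where Bmp4 was no longer tested. They numbered 3 with detection on at least 1 array and 3 with no filter, where Bmp6 was added. In males alone they numbered 5, in females alone 3, and when each mouse was left out in turn 2 to 3. Members called between the sexes numbered 0, but 2 with array weights (Grem1 and Bmper) and 0 to 1 when each mouse was left out, the 1 being Grem1 without control mouse 37. The Bmp4 strain difference of -1.37 was -1.97 with 1 added before log2, -0.85 with 50 added, -2.10 as the log2 ratio of mean intensities, -0.78 in males, -1.96 in females and between -1.65 and -1.15 when each mouse was left out. Small differences changed sign. The Chrd sex difference was 0.034 with array weights, 0.070 without control mouse 15 and 0.13 without mice 15 and 35, with a range from -0.15 to 0.070 when 1 mouse was left out, and its interaction was -0.017 without control mouse 15, with a range up to 0.54. The Fst sex difference was 0.080 and its interaction -0.031 without control mouse 17, with ranges from -0.17 to 0.080 and from -0.031 to 0.59. The Bmper interaction was 34.2 units on the linear scale. The causes were not tested. The adjusted p of the Id1 interaction ran from 0.00317 to 0.9998 over 20 alternatives, and it was 0.153 with 1 added, 0.614 with no filter and 0.0842 without mice 15 and 35. The Grem1 sex difference kept its sign throughout, with adjusted p from 0.0169 to 0.731, as did that of Bmper, with adjusted p from 0.0350 to 0.731. The pathway list gave 0 calls between the strains in 22 alternatives and the members 0 interactions in 20. Signal over background limits Bmp2, Bmp7 and Nog, which were dim on every array, and Bmp6 in controls.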

Other observations

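The remaining marker lists varied between single mice. Krt14, a keratin of basal keratinocytes, was detected on 8 of 8 arrays and ranged from 38.3 in mutant female 34 to 1007 in mutant male 32, and Krt5, its usual partner, was detected on 1. The 5 keratinocyte markers with a probe summed to between 195 and 1168 in mutants and between 324 and 944 in controls. Of 4 melanocyte markers 3 were detected on no array, with sums of at most 14.6 in mutants and 18.6 in controls. Of 3 adipocyte markers 2 were detected on no array, with sums of at most 14.3 and 11.8.

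In the pathway list 4 of 34 tested probes did not overlap between the sexes, beside a background of 5.16%. They were those of Acvrl1, Eng, Atoh8 and Id3. Atoh8, a BMP target of the helix-loop-helix family, read 110, 68.6, 144 and 45.2 in males 28, 32, 16 and 17 and 13.9, 12.0, 30.3 and 32.9 in females 34, 35, 15 and 37. Every male was above every female. The log2 difference was 1.45 (SE 0.30, limma adjusted p = 0.252). Id3 also did not overlap between the sexes, with a difference of 0.92 (SE 0.25, limma adjusted p = 0.384). Neither passed the threshold. In the pathway list 8 of 27 tested genes had an unadjusted limma p under 0.05 in the sex comparison, beside 8.31% of all tested probes, and 6 of 27 in the interaction, beside 1.77%. A gene counted if any of its probes did, so counts of genes and shares of probes are not alike.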
